A study of Homo sapiens with 6 samples.

Results

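Homologous recombination and crosslink repair by the Fanconi anaemia pathway are described here through 36 member genes in LNCaP cells, an established human prostate cancer line, after long exposure to enzalutamide. The members were taken from a list of gene symbols, by equality with the gene name in the deposited count table on the primary chromosomes. All 36 listed symbols were found, each in 1 row, out of 18164 genes in the table. Enzalutamide is an antagonist of the androgen receptor used against prostate cancer. It was given at 5 µM for 14 days in 3 samples, and 3 control samples received only the solvent, dimethyl sulfoxide (DMSO). Both groups grew in RPMI 1640 with 10% serum and contained 0.1% DMSO, and the labels give the genotype of all 6 samples as WT. Dishes of 150000 cells were fed every 72 h. The controls were collected when 70 to 80% confluent, on a day that the labels do not state, so the drug cannot be told apart from time in culture or cell density.

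Homologous recombination repairs a broken chromosome by copying an intact sister molecule. The broken ends are sensed and trimmed to single strands, a recombinase is loaded on them with the help of BRCA2, and the loaded strand invades the sister DNA. The Fanconi anaemia pathway removes covalent crosslinks between DNA strands, through a core complex that attaches ubiquitin to a clamp of FANCD2 and FANCI. Since a sister molecule exists only after replication, many of these genes are known to be expressed mainly in cells that pass through S and G2 phase. Inherited or acquired loss of BRCA2, ATM and related genes is known in prostate cancer and is used to choose patients for PARP inhibitors.

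The members fell together but by very different amounts. Of the 36 members, 32 were lower and 0 higher with enzalutamide (edgeR quasi-likelihood test, adjusted p under 0.05), where 29.2% of all genes tested were lower and 30.0% higher. At an unadjusted p under 0.05, 33 members were lower and 0 higher, and DESeq2 and limma-voom also called 0 members higher. A fall of at least 2-fold was called in 25 members, against 12.3% of all genes. The median log2 change of the members was -1.64, beside -0.00 over all genes tested, and single members ranged from -5.15 (EXO1) to 0.03 (RAD52). In 33 of 36 members every enzalutamide library lay below every DMSO library in CPM (read counts scaled to a common library size), which held for 33.0% of all genes. In 8 members 10% or less of the DMSO level remained, a limit for which the share of all genes was not counted. The remaining 4 members, RAD51D, ATM, FANCF and RAD52, did not pass the threshold.

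**Figure D1:**
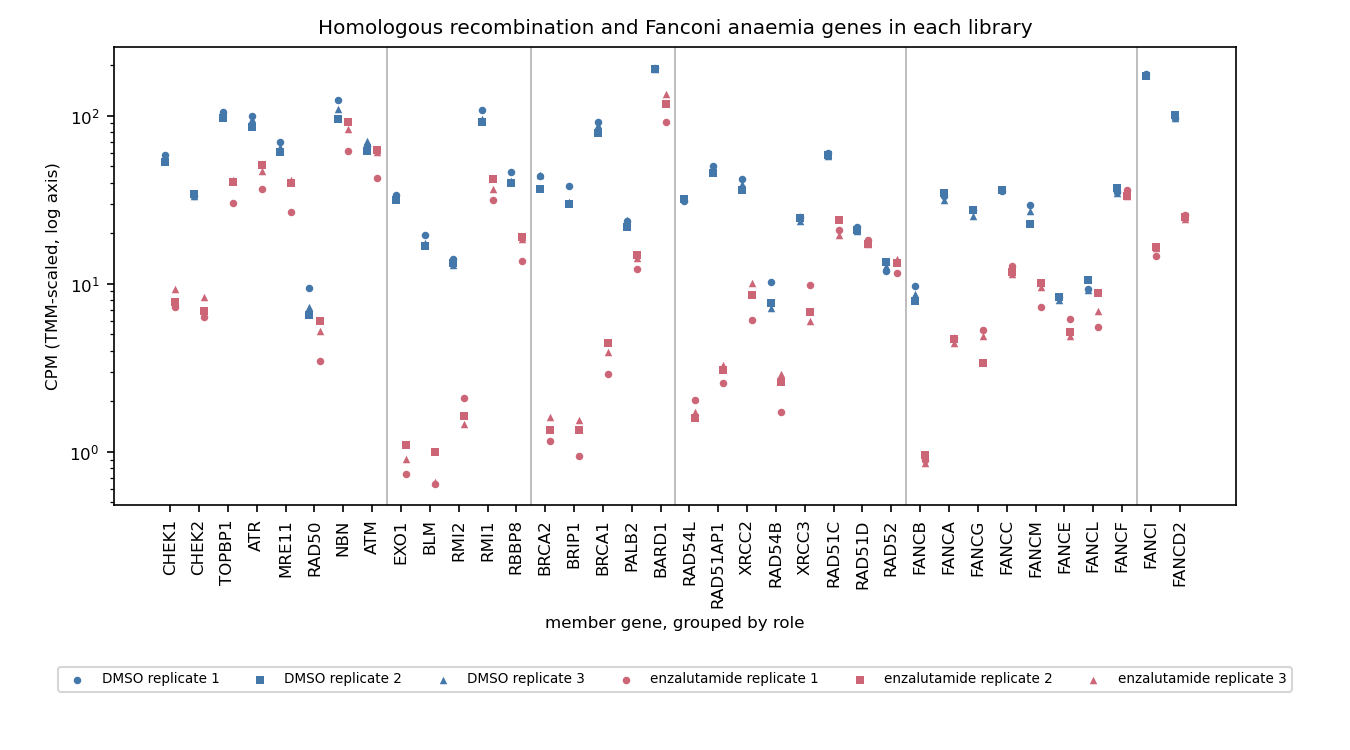
CPM of each member in each of the 6 libraries, on a log axis, with members grouped by role and ordered by change within a role; marker shape gives the replicate number. EXO1, BLM, BRCA2 and BRIP1 drop from between 16.7 and 44.2 CPM to between 0.646 and 1.62 CPM, while ATM, FANCF and RAD52 overlap between groups.

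Depth allowed these levels to be read. Total counts ran from 35578160 to 42540487 in DMSO and from 42302153 to 52107644 with enzalutamide, and no member had fewer than 115 counts over the 3 enzalutamide libraries. The labelled cell type showed its markers: all 7 LNCaP and prostate markers were measured, summing to between 7123 and 7222 CPM in DMSO and between 5958 and 6222 CPM with enzalutamide. Summed markers of other cells were low in both groups: 5 of 7 fibroblast markers summed to at most 14.7 CPM, 2 of 5 endothelial markers to at most 13.04 CPM and 2 of 4 markers of other epithelial lines to at most 5.27 CPM, and 0 of 5 leukocyte markers were measured. Of the measured ones 3 fibroblast and 1 endothelial marker rose, and 1 of each fell. All 7 proliferation markers fell, among them MKI67, and their summed level went from between 1425 and 1431 CPM in DMSO to between 103 and 105 CPM with enzalutamide. That fall accompanies every fall below, and its part in them was not tested. In bulk RNA, fewer cycling cells and less RNA per cell cannot be told apart.

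Promoter sequences of the members at both ends of the range are shown so that their letters can be compared. RefSeq (GRCh38.p14) windows of 300 bases, 250 before to 50 after the gene start, were found for 32 of 36 members, and FANCI, NBN, RMI2 and RAD54B had no entry. The 3 members with the lowest and the 3 with the highest change that had an entry were EXO1 (chr1:241847954-241848253, plus strand), BRCA2 (chr13:32315258-32315557, plus), BRIP1 (chr17:61863479-61863778, minus), ATM (chr11:108222817-108223116, plus), FANCF (chr11:22625774-22626073, minus) and RAD52 (chr12:949645-949944, minus). Capitals mark matches on either strand to E2F-type letters (TTTCCCGC, TTTGGCGC, TTTCGCGC or TTTGCCGC), to TTTGAA, the core of the cell cycle genes homology region, or to CCAAT.
EXO1: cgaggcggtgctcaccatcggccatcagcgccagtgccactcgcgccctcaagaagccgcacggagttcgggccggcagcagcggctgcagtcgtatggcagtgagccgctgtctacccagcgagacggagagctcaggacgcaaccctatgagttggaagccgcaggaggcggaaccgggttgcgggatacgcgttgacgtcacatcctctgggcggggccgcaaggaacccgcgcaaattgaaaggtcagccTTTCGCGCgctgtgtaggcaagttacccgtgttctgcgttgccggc
BRCA2: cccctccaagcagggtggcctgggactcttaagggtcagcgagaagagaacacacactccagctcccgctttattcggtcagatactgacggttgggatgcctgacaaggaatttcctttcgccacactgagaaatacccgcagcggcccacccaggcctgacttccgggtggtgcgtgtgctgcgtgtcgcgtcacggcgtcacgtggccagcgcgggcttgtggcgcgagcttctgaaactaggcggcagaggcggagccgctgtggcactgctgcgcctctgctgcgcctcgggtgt
BRIP1: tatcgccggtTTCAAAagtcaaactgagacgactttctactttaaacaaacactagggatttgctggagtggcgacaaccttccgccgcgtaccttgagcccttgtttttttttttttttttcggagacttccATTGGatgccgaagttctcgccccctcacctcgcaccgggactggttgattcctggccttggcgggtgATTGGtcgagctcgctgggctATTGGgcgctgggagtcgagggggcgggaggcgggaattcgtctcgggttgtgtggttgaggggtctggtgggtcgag
ATM: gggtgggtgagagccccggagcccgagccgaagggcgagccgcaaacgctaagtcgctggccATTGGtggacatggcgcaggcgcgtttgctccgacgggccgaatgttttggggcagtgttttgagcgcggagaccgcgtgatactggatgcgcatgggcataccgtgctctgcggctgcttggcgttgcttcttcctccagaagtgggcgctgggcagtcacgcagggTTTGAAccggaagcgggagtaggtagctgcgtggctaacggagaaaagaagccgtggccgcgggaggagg
FANCF: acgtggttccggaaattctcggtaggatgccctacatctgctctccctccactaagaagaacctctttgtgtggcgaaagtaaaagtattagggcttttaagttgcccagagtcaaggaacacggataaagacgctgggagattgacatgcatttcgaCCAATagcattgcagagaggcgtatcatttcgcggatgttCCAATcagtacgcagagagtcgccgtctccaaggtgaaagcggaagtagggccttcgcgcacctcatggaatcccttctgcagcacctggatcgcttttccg
RAD52: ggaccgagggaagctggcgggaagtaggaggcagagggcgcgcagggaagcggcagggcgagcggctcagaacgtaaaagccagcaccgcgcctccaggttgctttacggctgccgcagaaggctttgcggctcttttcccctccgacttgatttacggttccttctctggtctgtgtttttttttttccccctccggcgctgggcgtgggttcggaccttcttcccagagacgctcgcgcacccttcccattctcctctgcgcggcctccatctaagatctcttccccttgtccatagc

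E2F proteins drive genes of S phase. Their exact 8-letter sites were in a minority of member windows, but in a larger share than over all windows. An E2F-type match was present in 6 of 32 member windows (18.8%), beside 3.31% of 35116 promoter windows of all genes and 5.11% of the 10794 windows whose symbol is in the table. The 6 genes changed by a median of -2.11 (log2), and the 26 windows without a match by -1.44. The difference was not tested. Of the members with a window that fell furthest, EXO1 had a match. BRCA2, BRIP1, BRCA1, BLM, RAD54L, RAD51AP1 and FANCB had none. A CCAAT match was present in 43.8% of member windows, against 34.6% of all and 37.2% of those in the table. TTTGAA was present in 9.38% of member windows, against 15.2% of all and 9.76% of those in the table. BRCA2, with 30.4-fold less mRNA, and RAD52, with no call, both lacked all of these letters in the window. The RefSeq start of BRCA1 used here lies at an upstream alternative start, so its usual promoter was not in the window. BRCA1 is nevertheless counted among the windows without an E2F-type match. The 7 E2F-type matches are printed with 11 bases on each side, in order of the gene's change, and FANCC had 2 of them; capitals mark the match.
EXO1: aaaggtcagccTTTCGCGCgctgtgtaggc
FANCA: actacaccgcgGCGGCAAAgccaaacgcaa
XRCC2: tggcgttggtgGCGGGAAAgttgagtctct
FANCD2: cgtcgggcctgGCGGGAAAgtcgaaaacta
FANCC: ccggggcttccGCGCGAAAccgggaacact
FANCC: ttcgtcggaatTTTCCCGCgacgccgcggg
TOPBP1: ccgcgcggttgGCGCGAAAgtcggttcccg

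The BRCA complexes held some of the deepest falls and a clear split. All 5 members fell, 3 of them by over 20-fold, with a median log2 change of -4.52. BRCA2, which loads the recombinase on single strands (chromosome 13, 32315086 to 32400266, hg38), had 44.0, 36.5 and 44.2 CPM in the DMSO libraries and 1.16, 1.34 and 1.62 CPM in the enzalutamide libraries. Every enzalutamide library of BRCA2 lay far below every control. Its log2 change was -4.93 ± 0.17 (SE), a 30.4-fold fall (edgeR adjusted p = 7.03e-09). BRCA1, a ubiquitin ligase that promotes end trimming and recruits the other BRCA proteins (chromosome 17, 43044295 to 43170245), had 91.4, 79.4 and 87.9 CPM in DMSO and 2.91, 4.44 and 3.92 CPM with enzalutamide. The groups were widely apart for BRCA1 too, with a 22.9-fold fall (edgeR adjusted p = 1.22e-08). BRIP1, the helicase bound by BRCA1, fell 25.9-fold, from 32.9 ± 4.44 to 1.28 ± 0.30 CPM (SD, n = 3 per group).

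BARD1 and PALB2 fell far less than BRCA1, BRCA2 and BRIP1. BARD1, which forms the ligase with BRCA1, had 193, 190 and 190 CPM in DMSO and 91.7, 118 and 134 CPM with enzalutamide. PALB2, which bridges BRCA1 to BRCA2, had 23.6, 21.7 and 24.0 CPM in DMSO and 12.2, 14.8 and 14.2 CPM with enzalutamide. Neither gene's groups overlapped, with falls of 1.67-fold for BARD1 and 1.68-fold for PALB2 (edgeR adjusted p = 0.000752 and 0.000371). In both genes enzalutamide replicate 1 was the lowest library. About 60.0% of the BARD1 level remained, beside 4.36% for BRCA1.

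**Figure D2:**
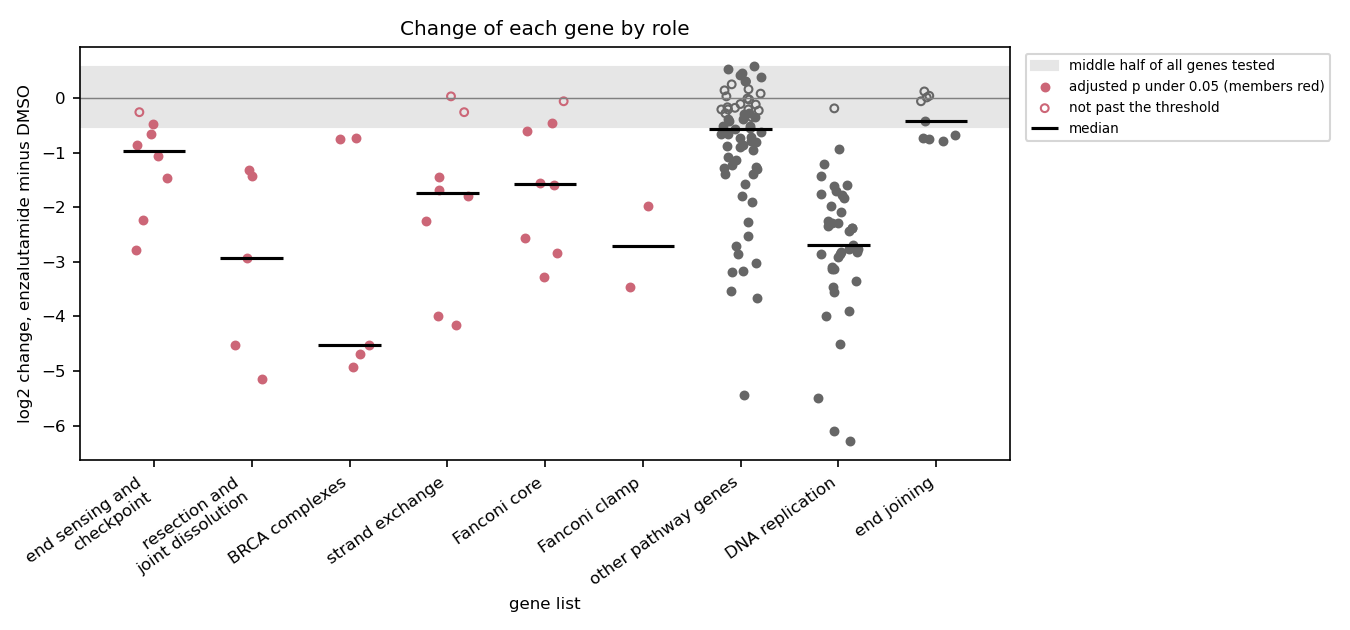
Fitted log2 change of each gene, by role for the 36 members (red) and for the other pathway genes, DNA replication genes and end joining genes (grey); filled points passed the adjusted p threshold of 0.05, open points did not, bars are medians and the band runs between the quartiles of all genes tested. The BRCA complexes have the lowest median of the member roles, -4.52, and end sensing and checkpoint genes the highest, -0.97.

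Trimming and dissolution genes all fell by over 2-fold (5 of 5, median -2.94). EXO1, the nuclease of long-range trimming, had 33.6, 31.7 and 32.1 CPM in DMSO and 0.741, 1.10 and 0.903 CPM with enzalutamide. This was the largest fitted fall among the members, 35.4-fold (log2 change -5.15 ± 0.16, SE, edgeR adjusted p = 4.73e-09). RBBP8 (CtIP), which starts trimming together with the MRE11 nuclease, had 46.3, 39.7 and 41.1 CPM in DMSO and 13.7, 18.9 and 18.4 CPM with enzalutamide. It fell only 2.49-fold (edgeR adjusted p = 2.68e-05), without overlap between groups. BLM, the helicase that takes apart joined DNA molecules, fell to 4.36% of its DMSO level (edgeR log2 change -4.52 ± 0.185, SE). Its partners RMI2 and RMI1, which stabilise that complex, fell 7.68-fold and 2.67-fold. RMI1 was the most abundant member in DMSO per exon length, at 28.0 ± 2.53 RPKM (CPM per kilobase of exon; SD, n = 3).

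Of 8 strand exchange genes, 6 fell (median log2 change -1.75) and 2 missed the threshold. RAD54L, a motor protein that remodels the joined DNA, had 31.1, 32.01 and 32.2 CPM in DMSO and 2.03, 1.59 and 1.74 CPM with enzalutamide. That was a 17.7-fold fall (edgeR adjusted p = 5.29e-09). RAD54L shares 19.9% of its exon bases with LRRC41 on the other strand, whose log2 change was 0.05 and did not pass. RAD51AP1, which stimulates strand invasion, fell 15.9-fold. RAD54B, a relative of RAD54L, had 10.2, 7.65 and 7.21 CPM in DMSO and 1.73, 2.59 and 2.90 CPM with enzalutamide, a 3.49-fold fall (edgeR adjusted p = 4.48e-05). Of its exon bases 59.0% are shared with FSBP on the same strand, and FSBP fell as well (log2 change -1.28), so reads of RAD54B may be lost or mixed.

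The recombinase paralogs, which form 2 small complexes that assist loading, moved by unequal amounts. XRCC2 fell 4.76-fold, from 39.2 ± 2.76 to 8.25 ± 2.03 CPM (SD, n = 3 per group). RAD51C had 59.7, 58.6 and 58.0 CPM in DMSO and 20.8, 24.0 and 19.6 CPM with enzalutamide, a 2.74-fold fall (edgeR adjusted p = 1.96e-06). XRCC3 had 24.8, 24.5 and 23.8 CPM in DMSO and 9.79, 6.77 and 6.01 CPM with enzalutamide, a 3.23-fold fall (edgeR adjusted p = 1.79e-05). XRCC3 shares 76.7% of its exon bases with KLC1 on the other strand, whose log2 change was 0.26 and did not pass, so its level depends on how overlapping reads were counted. RAD51D had 21.7, 20.9 and 20.6 CPM in DMSO and 18.3, 17.2 and 17.2 CPM with enzalutamide. Its libraries did not overlap, but its log2 change of -0.26 (95% interval -0.50 to -0.03) missed the threshold (edgeR adjusted p = 0.0529). With enzalutamide replicate 1 left out RAD51D passed (edgeR adjusted p = 0.00279), and so it did by limma-voom (0.0475).

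RAD52, an annealing protein that in human cells serves mainly as a backup to BRCA2, was at the other end of the range. Its libraries had 11.9, 13.4 and 12.8 CPM in DMSO and 11.6, 13.2 and 14.0 CPM with enzalutamide, and the groups overlapped. The log2 change was 0.03 (95% interval -0.24 to 0.30, edgeR adjusted p = 0.853), and it turned to -0.02 without DMSO replicate 1 and to -0.03 without enzalutamide replicate 3.

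In the Fanconi core complex, which carries the ubiquitin ligase activity, 7 of 8 members fell (median log2 change -1.57). FANCB, an X-linked scaffold subunit, had 9.66, 7.87 and 8.71 CPM in DMSO and 0.893, 0.964 and 0.856 CPM with enzalutamide. That was a 9.61-fold fall (edgeR adjusted p = 5.38e-08), with counts of 353, 331 and 308 against 47, 51 and 36. FANCA and FANCG, which bind each other in the complex, fell 7.16-fold and 5.92-fold. FANCC and FANCM, the latter a DNA translocase that anchors the complex, fell 3.02-fold and 2.94-fold. FANCE, which joins the core to FANCD2, fell 1.52-fold. FANCA shares 23.6% of its exon bases with ZNF276 on the other strand, which fell by 0.43 on the log2 scale.

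FANCL, the ligase subunit itself, was near the threshold. It fell 1.37-fold, from 9.67 ± 0.74 to 7.07 ± 1.66 CPM (SD, n = 3 per group, edgeR adjusted p = 0.0425). The call was lost without any 1 of DMSO replicate 1 (adjusted p = 0.0824), 2 (0.139) or 3 (0.0746) or enzalutamide replicate 3 (0.0888). It was also lost with upper quartile scaling (0.123), library size alone (0.0564) and the stricter filter (0.0519). FANCL shares 18.7% of its exon bases with VRK2 on the other strand, which fell by 0.79 on the log2 scale. FANCF, an adaptor of the core, had 35.1, 37.2 and 34.5 CPM in DMSO and 36.3, 33.1 and 33.4 CPM with enzalutamide, so the groups overlapped. Its log2 change was -0.06 (95% interval -0.28 to 0.17, edgeR adjusted p = 0.661), and 0.07 with upper quartile scaling.

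The clamp fell as well, its subunits unequally. FANCI had 178, 173 and 174 CPM in DMSO and 14.7, 16.7 and 16.4 CPM with enzalutamide, a log2 change of -3.46 ± 0.10 (SE, edgeR adjusted p = 2.56e-09). FANCD2 (chromosome 3) had 96.5, 102 and 96.9 CPM in DMSO and 25.8, 24.9 and 24.4 CPM with enzalutamide, a 3.93-fold fall (edgeR adjusted p = 6.36e-08). Both were tight within each group. GENCODE 29 names FANCD2P2 as a pseudogene of FANCD2, 4 such copies of CHEK2 and 1 each of MRE11, RAD51AP1 and RBBP8. Reads of these genes may be split.

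Genes of end sensing and checkpoint signalling had the smallest median fall of the 6 roles. Of 8 members 7 fell and 4 did so by at least 2-fold, with a median of -0.97. CHEK1, the kinase that halts the cycle when replication stalls, had 58.7, 52.9 and 55.3 CPM in DMSO and 7.26, 7.75 and 9.34 CPM with enzalutamide. That was a 6.87-fold fall (edgeR adjusted p = 6.20e-08). CHEK2, the kinase downstream of ATM, fell 4.69-fold. TOPBP1, an activator of ATR, fell 2.75-fold, and ATR, the kinase that senses single-stranded DNA, 2.09-fold.

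ATM, the kinase that senses broken ends (chromosome 11), did not pass. It had 66.5, 61.5 and 71.2 CPM in DMSO and 42.8, 62.6 and 60.6 CPM with enzalutamide, so enzalutamide replicate 1 lay apart from the others and the groups overlapped. Its log2 change was -0.26 (95% interval -0.59 to 0.06, edgeR adjusted p = 0.147).

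MRE11, RAD50 and NBN, the complex that first binds broken ends, fell by less than 2-fold. MRE11, its nuclease, had 69.6, 61.2 and 65.4 CPM in DMSO and 26.6, 39.5 and 41.5 CPM with enzalutamide, a 1.82-fold fall (edgeR adjusted p = 0.000991). NBN, which recruits ATM, had 124, 95.1 and 109 CPM in DMSO and 62.1, 91.8 and 82.9 CPM with enzalutamide, a 1.39-fold fall (edgeR adjusted p = 0.0219). The highest enzalutamide library of NBN nearly reached the lowest control. The NBN call was lost without DMSO replicate 1 (adjusted p = 0.102) or 3 (0.0566) and with upper quartile scaling (0.0733). RAD50, which tethers the ends, had 9.47, 6.49 and 7.27 CPM in DMSO and 3.46, 6.03 and 5.204 CPM with enzalutamide, a 1.58-fold fall (edgeR adjusted p = 0.0224). That call was lost without DMSO replicate 1 (adjusted p = 0.106) and with upper quartile scaling (0.0505). The RAD50 level is uncertain, since 76.9% of its exon bases are shared with AC116366.3 on the same strand and reads in them may have been dropped.

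Enzalutamide replicate 1 was the lowest of its group in 24 of 36 members, and DMSO replicate 1 the highest of its group in 25. The summed level of all members was 1892, 1742 and 1811 CPM in the DMSO libraries and 565, 707 and 702 CPM in the enzalutamide libraries. The sum with enzalutamide was 36.2% of that in DMSO. By role, the clamp went from a summed 273 to 40.9 CPM, and 28.0% of the summed level remained for trimming and dissolution and 30.8% for strand exchange. For the BRCA complexes it was 35.9%, since BARD1 made up most of that sum with enzalutamide. For the core it was 42.1% and for end sensing and checkpoint 51.0%.

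The order of the members by level changed with the unequal falls. Levels were compared per exon length as RPKM, over the whole annotated exon length of each gene, which understates genes with long rarely used exons. In DMSO the highest levels were those of RMI1 (28.0 RPKM), BARD1 (25.2 RPKM), FANCI (22.6 RPKM) and RAD51AP1 (18.5 RPKM). With enzalutamide they were those of BARD1 (15.1 RPKM), NBN (12.8 RPKM), FANCF (11.6 RPKM) and RMI1 (10.5 RPKM). RAD52 moved from rank 29 to rank 9 and ATM from rank 31 to rank 13, while BRCA1 moved from rank 11 to rank 31 and RAD51AP1 from rank 4 to rank 22. Under 1 RPKM stood 1 member in DMSO, RAD50, and 12 with enzalutamide. RAD50, XRCC3 and RAD54B carry the large exon overlaps given for them above, so their places in this order are uncertain.

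**Figure D3:**
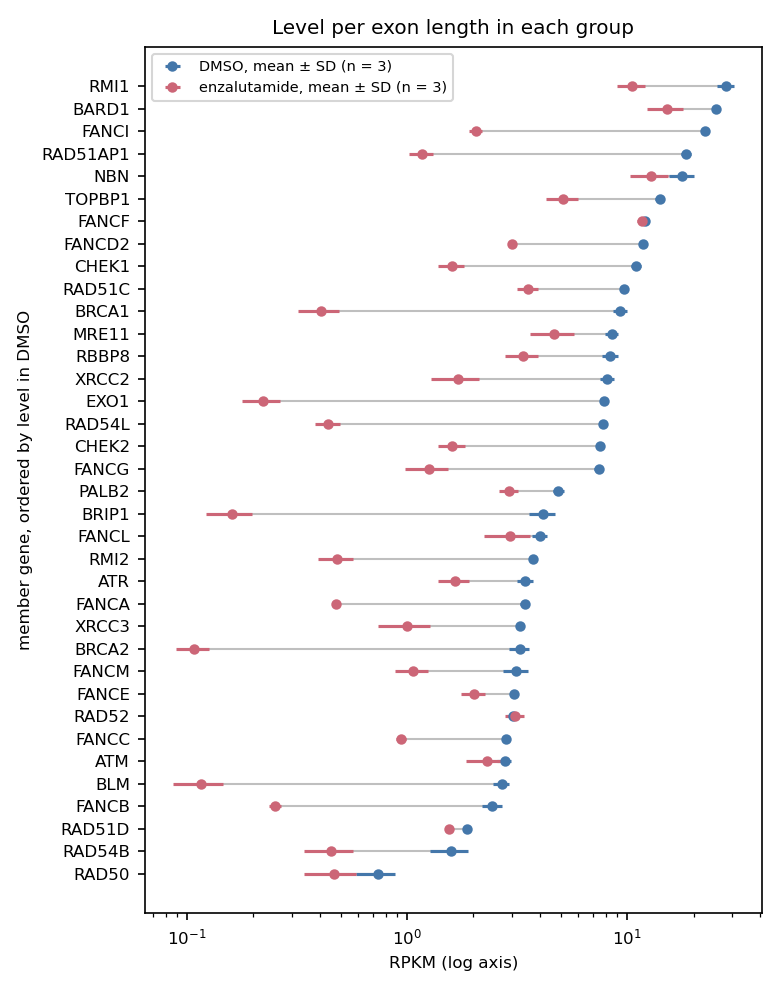
Mean level per exon length of each member in DMSO (blue) and with enzalutamide (red), in RPKM on a log axis, with bars of ± SD over 3 libraries and members ordered by their DMSO level. BRCA2 moves to the lowest level, 0.107 RPKM, while RAD52 stays at 3.03 and 3.09 RPKM.

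Ratios between partner genes were compared within each library, where they do not depend on library scaling. For 11 pairs of members that share a complex or are close relatives, the log2 ratio of counts was set between groups with an exact permutation test, two-sided, whose smallest possible p with 3 against 3 is 0.1. None can therefore pass 0.05, and 9 of the 11 reached 0.1 (adjusted over the pairs, 0.1222), with no overlap between groups. How often other pairs of genes separate in this way was not counted, so the 9 cannot be called particular to these partners. Among single genes, 33.0% of all had every enzalutamide library below every DMSO library. The log2 ratio of BRCA2 to PALB2 was 0.84 ± 0.08 in DMSO and -3.32 ± 0.17 with enzalutamide (SD, n = 3 per group, exact p = 0.1), a 17.9-fold shift. BRCA1 to BARD1 went from -1.15 ± 0.10 to -4.93 ± 0.18 (SD, n = 3 per group, exact p = 0.1). RAD54L to RAD54B went from 1.94 ± 0.30 to -0.40 ± 0.55 (SD, n = 3 per group, exact p = 0.1). These ratios restate, within single libraries, the unequal changes of the genes given above.

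In 5 other pairs the ratio shifted toward the first gene named, with no overlap between groups. The differences in log2 ratio were 2.01 for RAD51D to XRCC2, 1.53 for RMI1 to RMI2, 1.49 for FANCD2 to FANCI, 0.79 for ATM to ATR and 0.20 for NBN to RAD50 (exact p = 0.1 for each). FANCD2 had fewer counts than FANCI in every DMSO library and more in every enzalutamide library. CHEK1 to CHEK2 differed by -0.55. In the other 2 pairs the groups overlapped, with differences of -0.21 for MRE11 to RAD50 (exact p = 0.3) and 0.27 for RAD51C to XRCC3 (exact p = 0.4). The size of the 3 smallest differences depended on single libraries, though not their sign. Leaving out enzalutamide replicate 1 gave 0.495 for RAD51C to XRCC3, and leaving out replicate 2 of that group gave 0.125. MRE11 to RAD50 was -0.32 without DMSO replicate 1, -0.141 without DMSO replicate 2 and -0.127 without enzalutamide replicate 2. NBN to RAD50 was 0.128 without enzalutamide replicate 1. RAD50 and XRCC3 carry the overlaps given above.

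**Figure D4:**
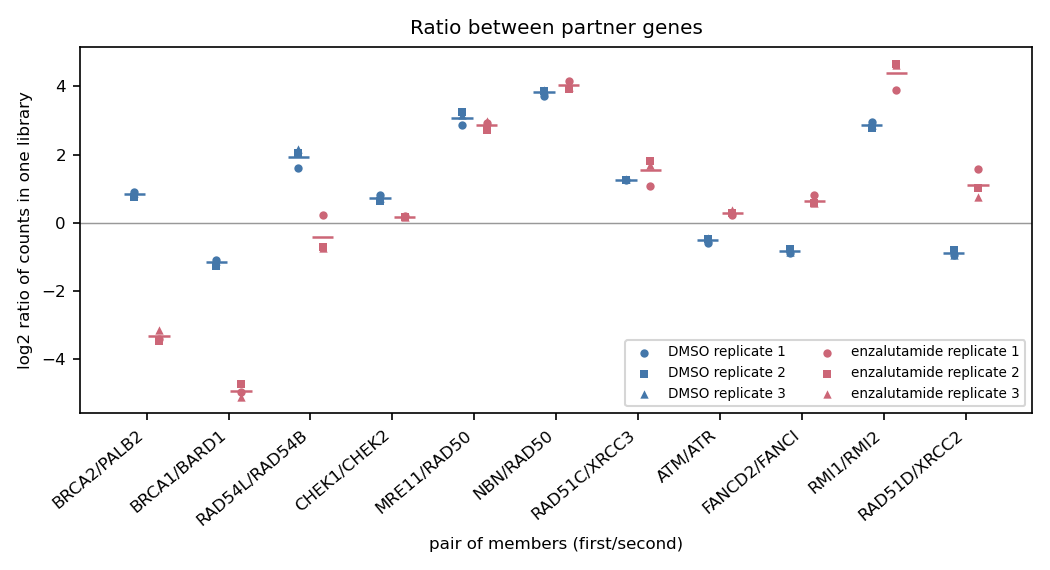
Log2 ratio of counts between the genes of each pair, in each library (marker shape gives the replicate) with group means as bars, for 11 pairs ordered by the difference between groups. BRCA2/PALB2 and BRCA1/BARD1 fall furthest, by 4.16 and 3.78, and RAD51D/XRCC2 rises most, by 2.01.

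Genes that start beside a member on the other strand were examined for comparison. Within 1000 bases of the outermost annotated start of a member, 17 members had such a neighbour in the table, 18 genes in all. Of these 3 were lower, 4 higher and 11 did not pass, with a median log2 change of -0.08, and 0 were lower by at least 2-fold. Over all genes tested 29.2% were lower, 30.0% higher and 12.3% lower by at least 2-fold. NBR1, an autophagy receptor next to the upstream start of BRCA1, went from 206 to 279 CPM (log2 change 0.43 ± 0.09, SE, edgeR adjusted p = 0.00186). NBR2, a non-coding gene known to share the usual BRCA1 promoter, was added after its values were seen, and went from 19.6 to 26.7 CPM (log2 change 0.44 ± 0.12, SE, edgeR adjusted p = 0.009). C12orf4 beside RAD51AP1 had a log2 change of -0.39 (adjusted p = 0.0728), while RAD51AP1 itself was at -3.99. MOSPD2 beside FANCB fell by 0.43, FKBP3 beside FANCM by 0.62 and NPAT beside ATM by 0.66 on the log2 scale. NPAT, which drives histone genes in S phase, thus passed the threshold where ATM did not; the difference between them was not tested.

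**Figure D5:**
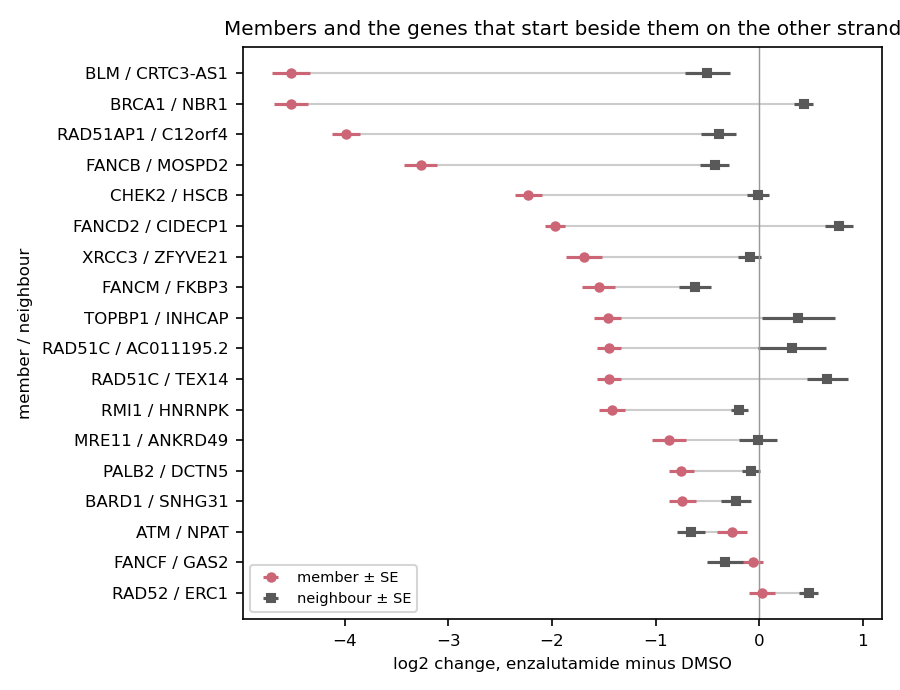
Fitted log2 change ± SE of 17 members (red) and of the 18 genes that start within 1000 bases on the other strand (grey), ordered by the member's change. The neighbours lie between -0.66 and 0.77, and the members reach -4.52.

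The other genes of the pathway moved in both directions. A list of 69 further genes of recombination, crosslink repair and their signalling had 66 in the table, of which 42 fell and 6 rose while 18 missed the threshold, against 29.2% of all genes lower and 30.0% higher. Their median log2 change was -0.56, and 21 were lower by at least 2-fold. The largest falls were MND1, known as a meiotic helper of strand exchange (log2 change -5.44), and POLQ, the polymerase of theta-mediated end joining (-3.67). Next came EME1, a nuclease subunit (-3.53), and the histone gene H2AFX (-3.18). MND1 rests on only 7, 10 and 9 counts in the enzalutamide libraries. In the Fanconi accessory genes 7 of 10 fell, among them UBE2T, the ubiquitin-conjugating enzyme that works with FANCL (-2.85), and USP1, which removes that ubiquitin (-1.30). Of 13 genes of single-strand binding and the checkpoint clamp 10 fell, led by CLSPN, which links ATR to CHEK1 (-3.03). TP53BP1, which restrains trimming, fell by 0.57 on the log2 scale.

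The 6 that rose were BABAM2 (log2 change 0.59), SHLD1 (0.54), ZSWIM7 (0.46), SWSAP1 (0.42), FBH1 (0.39) and ERCC4 (0.31). Only for SHLD1 did the groups overlap, with 2.955, 3.184 and 2.829 CPM in DMSO and 5.151, 4.65 and 3.161 CPM with enzalutamide. Without DMSO replicate 1, 2 or 3 or enzalutamide replicate 2, only 3 genes were called higher. ZSWIM7 and SWSAP1 form a pair that acts on the recombinase, and FBH1 is a helicase that removes it. Beside these lists, 38 of 39 genes of DNA replication fell (median log2 change -2.70), 37 of them by at least 2-fold. Of 9 end joining genes 5 fell (median -0.42), 0 of them by at least 2-fold. Over all genes tested 29.2% were lower and 12.3% lower by at least 2-fold. The differences between the lists were not tested.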

How the data were processed

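Poly(A) RNA of 6 LNCaP samples was sequenced as paired reads (100 bases each), as the labels' protocols say. The submitters' processing notes name STAR 2.5, Subread 1.6.5 with featureCounts, bcl2fastq, hg38 and edgeR 3.20.8. Strand use in counting is not stated there. The deposited table holds read counts per gene and library, and also the authors' log2 CPM, log2 RPKM, log2 fold changes and p-values, per the file headers. Every deposited gene had at least 9 counts in at least 3 libraries. The test was that of edgeR 4.0.16, run in R 4.3.3 (TMM scaling, robust quasi-likelihood F test on group, 4 residual degrees of freedom, Benjamini-Hochberg over 18164 genes); filterByExpr removed 0 genes. Each SE was taken from the change and its F value. CPM and RPKM use TMM-scaled library sizes. Ratios used counts plus 0.5. The script was tested on simulated data. DESeq2 1.42.0, limma 3.58.1 (limma-voom), other scalings and filters, a replicate block and leaving out each library were alternatives. Replicates differed by more than sampling noise (chi-square per degree of freedom at least 3.63); whether they were separate cultures is not stated, and p-values then measure only the spread between samples, possibly technical. Members, lists and tests were chosen with earlier results of these data known. Named were all members, with values per library for the extremes of each role, BRCA1, BRCA2, FANCD2, ATM, CHEK1, members that did not pass and the pairs that shifted most or least, and the 4 lowest and 4 highest other pathway genes past the threshold, with further ones named by role. Promoters came from RefSeq and exon overlaps from GENCODE 29, both on GRCh38. Genes outside the table are not analysed here.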

Additional observations from a re-analysis of the deposited data

How the results depend on the processing

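Members lower numbered 29 to 33 and those at least 2-fold lower 24 or 25 over the 14 alternatives, with 0 higher in each. The median member change ranged from -1.67 to -1.52. Of 504 combinations of a member and an alternative 487 kept their direction and their side of the threshold, 12 lost a call (7 in FANCL, 3 in NBN and 2 in RAD50) and 2 gained one (RAD51D). The sign turned in 3, all in members with no call: FANCF was 0.071 with upper quartile scaling, and RAD52 ranged from -0.031 to 0.115 when 1 library was left out. Upper quartile scaling moved the median of all genes to 0.123, and the member falls are then to be read against it. Other pathway genes higher ranged from 3 to 7 when 1 library was left out, and those lower from 34 to 50. Same-numbered libraries did not deviate together (correlations of -0.15, -0.14 and 0.05). An unlike-numbered pair, DMSO replicate 2 with enzalutamide replicate 1, gave 0.22. With 3 libraries per group these values cannot exclude a shared effect of the replicate number. Nor can they tell whether same-numbered samples were handled together. With the replicate block 32 members were lower, and 39 other pathway genes lower and 4 higher. The no-filter alternative removed nothing. All 11 partner ratios kept their sign with a prior of 5 counts, the replicate block and each library left out. With windows of 500 or 2000 bases, 2 or 3 neighbours were lower and 3 or 5 higher. By the authors' deposited table, lower members number 32 at a false discovery rate under 0.05, and its log2 changes differ from those here by at most 0.002. The levels of EXO1, BLM and FANCB with enzalutamide rest on counts of 28 to 58 per library.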
